A study of Mus musculus with 1536 samples.

Results

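Hox genes encode the homeodomain transcription factors that give the segments of the embryonic hindbrain and spinal cord their identity along the head-to-tail axis. They lie in 4 clusters, Hoxa to Hoxd, and the order of the genes along a cluster follows the order of their front borders in the embryo, so that the low paralogue numbers reach farthest forward. The most rostral hindbrain segment, from which dorsal raphe (DR) serotonin neurons arise, lies in front of these borders and is marked instead by genes of the midbrain-hindbrain boundary such as En1 and Pax5. Median raphe (MR) serotonin neurons come in part from the segments behind it, the first of which holds Hoxa2 as its only Hox gene. Hox proteins bind DNA together with cofactors of the TALE homeodomain families Pbx, Meis and Pknox.

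The members described are the rows of the deposited table with a Hoxa, Hoxb, Hoxc or Hoxd symbol followed by a number, which are 39 of 53263 rows. Cells came from mice of strain C57BL/6J, 40 to 45 days old, in which Cre under the control of the serotonin transporter gene Sert (Slc6a4) switched on the Ai14 tdTomato reporter, and single tdTomato+ cells were sorted into plates and made into Smart-seq2 libraries. Both dissections share this genotype, and since the reporter stays on once it has been recombined, a cell that used Sert only during development would be labelled too. The principal DR dissection has 290 cells on 5 plates, and the dissection labelled all DR, which per the study's methods also took in the caudal DR and the MR, has 709 cells on 11 plates. Animals are not named in the labels. Each dissection was therefore taken as 1 sample, and no p-value could be computed for a difference between dissections or cell groups. Since no plate held both dissections, plate and dissection cannot be told apart.

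Depth and identity of the cells were as follows. A cell had 96834 to 2780443 reads on genes, and the median was 869546 in the all DR and 755926 in the principal DR dissection. Tph2, the enzyme that makes serotonin in neurons, and Fev, a transcription factor of serotonin neurons, were read in 100% of the cells of both dissections, and Slc6a4 in all but 2 cells. Only 10 cells, all from the all DR dissection, had less than 1000 CPM of Tph2, where CPM is the reads of a gene scaled to a total of 1000000 reads on genes in every cell.

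Hox genes were almost entirely unread in these mature serotonin neurons. Of the 39 genes, 33 had no read in any of the 999 cells, which is 84.6%, against 43.2% of all rows of the table and 20.4% of the rows that the GENCODE M21 annotation lists as protein coding. The other 6 genes were read in 10 cells, and no cell had reads of more than 1 of them. Together they received 123 of the 904889383 reads on genes. All 10 cells came from the all DR dissection, which gives 1.41% of its 709 cells (exact binomial 95% interval 0.678 to 2.58). Of the 290 principal DR cells 0 had a Hox read, which allows a share of up to 1.03% by a limit of 3 cells. The exact interval for it reaches 1.26%. The interval and the limit cover counting error only, and the interval of the all DR dissection reaches below that limit. A difference between the dissections was not tested, as animals are not named and no plate held both. The limit for a single gene with 0 of 999 cells is 0.3003% of cells, and 0.00332 CPM when the reads of all cells are pooled.

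No Hox gene reached the 10 cells at which genes were to be described one by one, so the genes below are named after their values were seen. In the Hoxa cluster on chromosome 6, Hoxa2 was read in 5 cells (0.705% of all DR cells, interval 0.229 to 1.64), with 4, 5, 6, 10 and 12 reads. Hoxa9 was read in 1 cell with 1 read. In the Hoxb cluster (chr11:96194316-96368256, GRCm38) Hoxb2 had 2 reads in 1 cell and Hoxb5 had 70 reads in 1 cell. Hoxc4 had 1 read in 1 cell in the Hoxc cluster (chr15:102921103-103036852), and none of the 9 genes of the Hoxd cluster (chr2:74668310-74765142) was read. Hoxb5 thus holds 56.9% of all Hox reads in a single library, and 53 reads remain without it.

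The counting could have removed some reads. Reads were counted without regard to strand, and a read that falls wholly on exons shared by overlapping genes on either strand is ambiguous and goes to neither, which matters in clusters that are full of overlapping and antisense transcripts. In GENCODE M21, 36 of the 39 Hox genes have at least 50% of their exonic bases to themselves, and so do 30 of the 33 unread ones. The exceptions are Hoxb3 (47.1% of its exonic bases), Hoxd3 (37.2%) and Hoxd4 (47.7%), whose exons overlap Hoxb3os, or each other and antisense transcripts. The gene with the fewest exonic bases of its own is Hoxa6, with 874. Which annotation version the authors counted on is not given in the sources used here, so these shares apply to GENCODE M21.

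Hoxa2 is the gene read most often, and En1, which marks the rostral hindbrain, was not read in any of the 5 Hoxa2 cells. The stretches around their starts, 250 bases before to 50 bases after the first base of the transcript, are shown 5′ to 3′ from RefSeq on GRCm38.p6, because the results below turn on these genes. Hoxa2 is on the minus strand at chr6:52164782-52165081 and En1 on the plus strand at chr1:120602237-120602536. Capitals mark matches on either strand to TGATNNAT, the shared letters of sites bound by a Pbx and a Hox protein together, and to TGACAG, the letters bound by Meis proteins. Matches to the 2 motifs do not overlap in these windows.
Hoxa2: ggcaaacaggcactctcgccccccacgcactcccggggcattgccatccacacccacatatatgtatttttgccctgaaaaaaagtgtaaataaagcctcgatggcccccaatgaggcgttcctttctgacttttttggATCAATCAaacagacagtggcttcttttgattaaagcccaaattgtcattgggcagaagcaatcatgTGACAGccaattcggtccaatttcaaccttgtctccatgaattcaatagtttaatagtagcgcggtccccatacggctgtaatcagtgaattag
En1: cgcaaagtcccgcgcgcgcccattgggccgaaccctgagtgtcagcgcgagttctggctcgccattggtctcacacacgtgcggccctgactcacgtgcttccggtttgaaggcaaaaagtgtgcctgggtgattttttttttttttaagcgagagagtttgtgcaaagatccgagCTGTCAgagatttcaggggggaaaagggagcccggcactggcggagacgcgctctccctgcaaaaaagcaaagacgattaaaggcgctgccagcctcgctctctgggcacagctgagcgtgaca

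The Hoxa2 window holds 1 match to the Pbx-Hox letters, on the strand opposite to the gene, and 1 to the Meis letters. The En1 window holds 1 match to the Meis letters and none to the Pbx-Hox letters. Of all 32851 promoter windows of the same length, 8.85% hold the Pbx-Hox letters and 19.2% the Meis letters, so neither match is rare. Of the 24 windows of 22 Hox genes in that table, 4 hold the first and 2 the second. A match is a run of letters and was not measured as a binding site.

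The cells of these genes were followed one by one. The 5 Hoxa2 cells came from 5 plates (51, 56, 57, 63 and 67) and looked like serotonin neurons, with 3230 to 10408 CPM of Tph2. In 3 of them Irx2, a homeobox gene that marks a set of MR serotonin neurons, was at 16.4, 25.3 and 37.0 CPM, and in the other 2 it was not read. Pth2r, a neuropeptide receptor gene listed as a marker of the Irx2 cells, was read in 4 of the 5, at 13.4 to 50.6 CPM, among them 1 of the 2 cells without Irx2. The fifth cell had neither Irx2 nor Pth2r but 208 CPM of Rorb, a nuclear receptor gene, which was also high in the plate 51 cell at 156 CPM.

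The cell with the single Hoxa9 read resembled the Hoxa2 cells. It had 21.7 CPM of Irx2, 48.2 CPM of Pth2r and 55.4 CPM of Rorb. En1 was read in none of these 6 cells.

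The Hoxb2, Hoxb5 and Hoxc4 cells differed from these and from each other. The Hoxb2 cell carried both Zeb2 (21.9 CPM), a zinc finger repressor that marks caudal DR and other MR serotonin neurons, and Irx2 (29.6 CPM), with 304 CPM of the neuropeptide gene Galanin (Gal). Its serotonin genes were low, at 108 CPM of Tph2 and 327 CPM of Slc6a4, and it alone also had reads (7) of Hoxb3os, the antisense transcript that overlaps Hoxb2. Since strand was ignored, reads wholly on exons shared by the 2 transcripts went to neither. The counted reads of each therefore reached bases annotated to it alone, and others may be missing. The Hoxc4 cell was in none of the marker groups, had 12945 CPM of Tph2 and was the only one of the 10 with En1, at 17.3 CPM.

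The Hoxb5 library stood apart from all others. It had 1760 detected genes, the fewest of any library, and 120692 reads on genes, with 16.6 CPM of Tph2, no read of Slc6a4 and 249 CPM of the endothelial gene Cldn5. The other 9 Hox cells had 7805 to 9890 detected genes. The oligodendrocyte marker list, which has 7 genes, had a higher sum there than in any of the other 9, where it lay between 81.9 and 244 CPM, with Mog, Mag and Mal at 0 in all 10, and its median was 109 CPM over the all DR cells without a Hox read. Astrocyte, microglia and noradrenergic markers were at 0 in all 10 cells. The ependymal list reached a sum of 19.3 CPM in the highest of the 10, all of it Foxj1, and 88.2 CPM among the other all DR cells. The same 19.3 CPM was the highest sum of the cells with Zeb2 and of the cells with Irx2 at 10 CPM or more. Of the 10, only the Hoxb2 cell is among both. The part of other cells or of poor RNA in the Hoxb2 and Hoxb5 reads was not tested. Of the 10 all DR cells under 1000 CPM of Tph2, 2 had a Hox read (Hoxb2 and Hoxb5), and of the 699 above it 8 did, which is 1.14%.

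**Figure D1:**
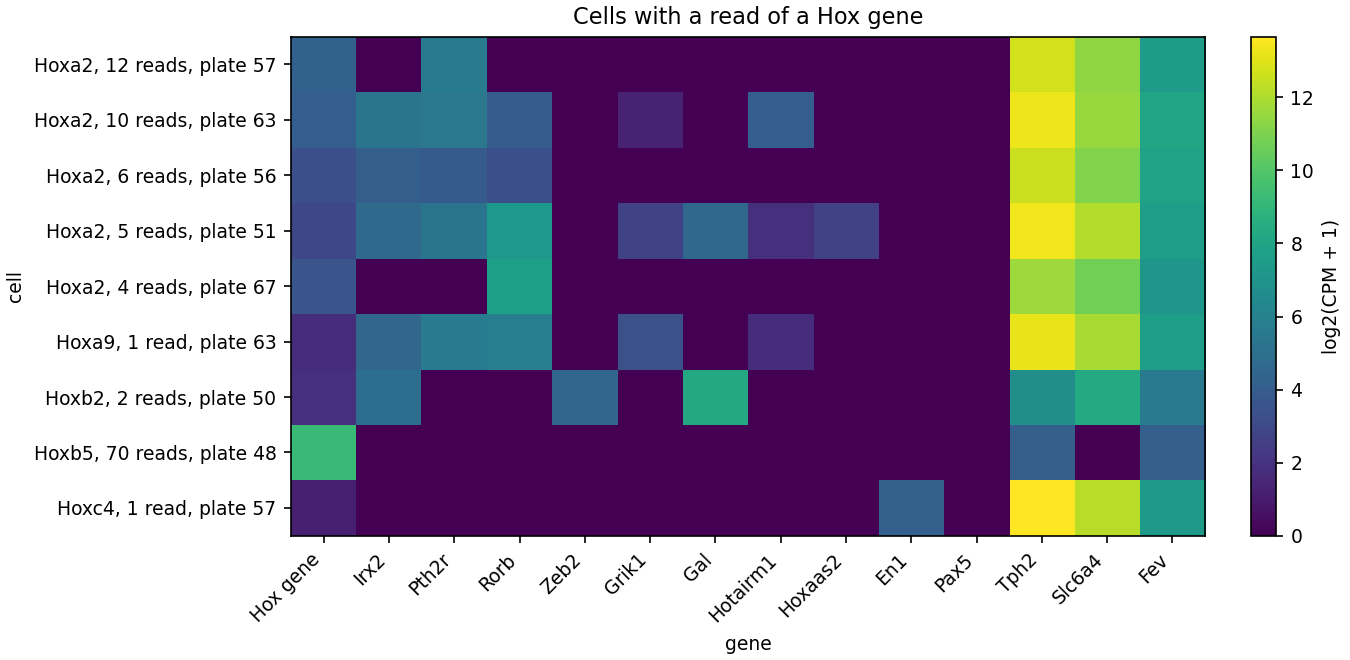
Level of the Hox gene that was read, and of marker genes, in 9 of the 10 cells with a Hox read, as log2(CPM + 1). CPM is not corrected for gene length, so colours are to be compared down a column. The cells with Hoxa2 or Hoxa9 are high in Tph2 and Slc6a4, while the Hoxb5 library lacks Slc6a4.

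Whether Hox reads fall in particular serotonin neurons was asked with 4 marker groups of all DR cells, set at 10 CPM or more of Zeb2 (138 cells) or Irx2 (136 cells) and 50 CPM or more of Rorb (231 cells) or of the glutamate receptor gene Grik1 (35 cells). A cell can be in several groups, and 125 were in more than 1. Each listed marker was read in a larger share of its group than of the cells in none of the groups, but some gaps were small. In Rorb-high cells Gal was read in 43.3% against 38.3% and the receptor gene Crhr2 in 52.8% against 41.5%. In Zeb2 cells the receptor genes S1pr3 and P2ry1 were read in 34.1% against 29.1% and 15.9% against 12.5%. Gaps were wider for the markers that follow. Met, a growth factor receptor, was read in 84.1% of Zeb2 cells and 0.319% of the 313 cells in none of the groups. Pth2r was read in 60.3% of Irx2 cells against 25.6%. Ppp1r17, an inhibitor of protein phosphatase, was read in 33.8% of Rorb-high cells against 6.71%, and Nmbr, a neuromedin receptor, in 51.4% of Grik1-high cells against 0.958%.

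Irx2 cells held 6 of the 10 Hox cells. The share with a Hox read was 4.41% of Irx2 cells (6 of 136, interval 1.64 to 9.36), 1.73% of Rorb-high cells (4 of 231, interval 0.474 to 4.37), 0.725% of Zeb2 cells (1 of 138, interval 0.0183 to 3.97) and 0.958% of cells in none of the groups (3 of 313, interval 0.198 to 2.78). None of the 35 Grik1-high cells had a Hox read, which allows up to 8.57%. The interval of Irx2 cells overlaps that of the cells in no group. Within the 10 plates with at least 3 cells of each kind, the Irx2 share was the higher in 5, the lower in 1 and equal at 0 in 4.

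The Irx2 group and the Rorb-high group share 59 cells, and these hold 3 of the Hox cells. Of the 172 Rorb-high cells without Irx2, 1 had a Hox read (0.581%), and of the 77 Irx2 cells below the Rorb level 3 did (3.90%). Among the Irx2 cells, 5 of the 82 with Pth2r (6.10%, interval 2.01 to 13.7) and 1 of the 54 without it (1.85%, interval 0.0469 to 9.89) had a Hox read. All 6 lay below 50 CPM of Irx2, and 0 of the 43 cells at or above that level had a Hox read, which allows up to 6.98%. Of the 3 Hox cells in no group, 2 were on plate 57 and the third was the Hoxb5 library. Without plate 57 the share was 0.362% in no group and 4.17% of Irx2 cells. With each plate left out in turn, the share in no group ran from 0.362% to 1.12%. Without the cells under 1000 CPM of Tph2 it was 0.643%, against 3.85% of Irx2 cells.

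**Figure D2:**
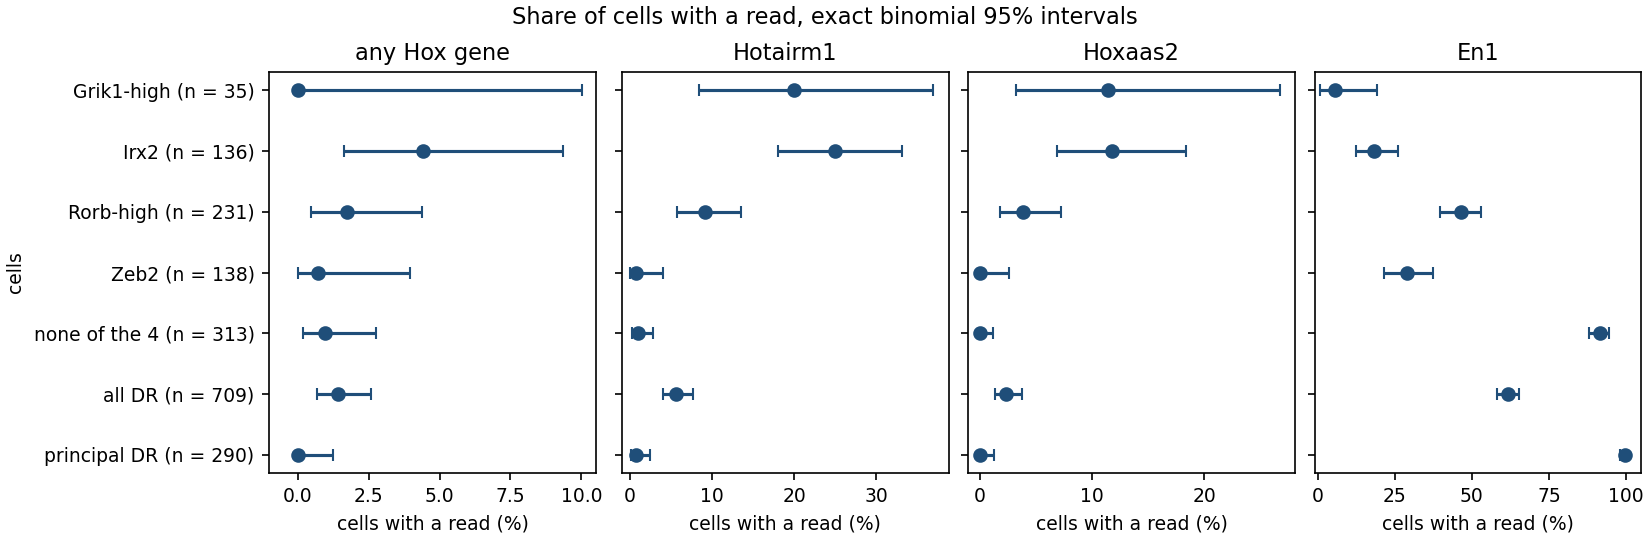
Share of cells with at least 1 read of any Hox gene, of the noncoding Hoxa cluster transcripts Hotairm1 and Hoxaas2, and of En1, by dissection and by marker group of the all DR dissection, with exact binomial 95% intervals (counting error only; each panel has its own scale). Hotairm1 was read in 25% of Irx2 cells and 0.958% of cells in no group, whereas En1 was read in 18.4% and 91.7%.

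Noncoding transcripts of the Hoxa cluster were read more often than the Hox genes themselves. Strand was ignored, so which strand the reads counted on these transcripts came from is not known. Reads wholly on exons shared with a Hox gene went to neither. Of the 42 other rows whose genes lie inside the 4 clusters, 7 had a read and 35 had none. Hotairm1 (chr6:52156902-52162119, plus strand) was read in 40 all DR and 2 principal DR cells, with 1 to 13 reads and a median of 2. Hoxaas2 (chr6:52165674-52169564, plus strand), which starts between Hoxa2 and Hoxa3 and overlaps the end of Hoxa3, was read in 17 all DR cells and in none of the principal DR, with 2 to 25 reads and a median of 5. At least 1 of the 2 transcripts or a Hox gene was read in 57 all DR cells (8.04%, interval 6.15 to 10.3).

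These transcripts lay mainly in Irx2 cells. Hotairm1 was read in 34 of 136 Irx2 cells (25%, interval 18.0 to 33.1), 1 of 138 Zeb2 cells (0.725%, interval 0.0183 to 3.97) and 3 of 313 cells in no group (0.958%, interval 0.198 to 2.78). Its share was higher in Irx2 cells than in cells of no group in 9 of 10 plates and equal at 0 in 1, with a median over plates of 29.7% (0 to 46.2) against 0% (0 to 4.88). Hoxaas2 was read in 16 of 136 Irx2 cells (11.8%, interval 6.88 to 18.4), in 0 of 313 cells of no group, which allows up to 0.958%, and in 0 of 138 Zeb2 cells, which allows up to 2.17%. It was the higher in Irx2 cells in 7 of 10 plates and equal at 0 in 3. The median of reads on genes was 775738 in Irx2 cells and 895433 in the cells of no group. The intervals of Irx2 cells and of cells in no group do not overlap for either transcript. They pool cells over plates and cover counting error only, and the difference was not tested.

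Reads of Hotairm1 and Hoxaas2 were also found in Grik1-high cells, of which 0 of 35 had a Hox read (allowing up to 8.57%). Hotairm1 was read in 7 of 35 (20%, interval 8.44 to 36.9), of which 6 were also Irx2 cells. Hoxaas2 was read in 4 of 35 (11.4%, interval 3.20 to 26.7), of which 3 were also Irx2 cells. A Hox gene or at least 1 of the 2 transcripts was read in 31.4% of Grik1-high cells and 33.8% of Irx2 cells. Of Rorb-high cells 9.09% had Hotairm1, but only 2 of the 172 without Irx2 did. Within the Irx2 group the share was 23.2% with Pth2r (interval 14.6 to 33.8) and 27.8% without it (interval 16.5 to 41.6), with overlapping intervals. Few reads stand behind these shares. Hotairm1 had a single read in 14 of its 42 cells, and with every cell thinned to 250000 reads its share was 13.4% of Irx2 cells and 0.325% of cells in no group. At 10 CPM or more, 1 Irx2 cell was left (0.735%). The transcripts overlapped only partly with Hox reads, with Hotairm1 in 4 of the 10 Hox cells, Hoxaas2 in 1, and both transcripts together in 6 cells.

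The remaining reads of the clusters were few or uncertain. Gm27477 was read in 3 cells, Gm15050 and Hoxb3os in 1 all DR cell each and Hoxd3os1 in 1 principal DR cell. Gm11539 was read in 157 all DR and 96 principal DR cells with at most 4 reads a cell. It is annotated as a processed pseudogene, and whether reads of another gene were counted on it was not tested.

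**Figure D3:**
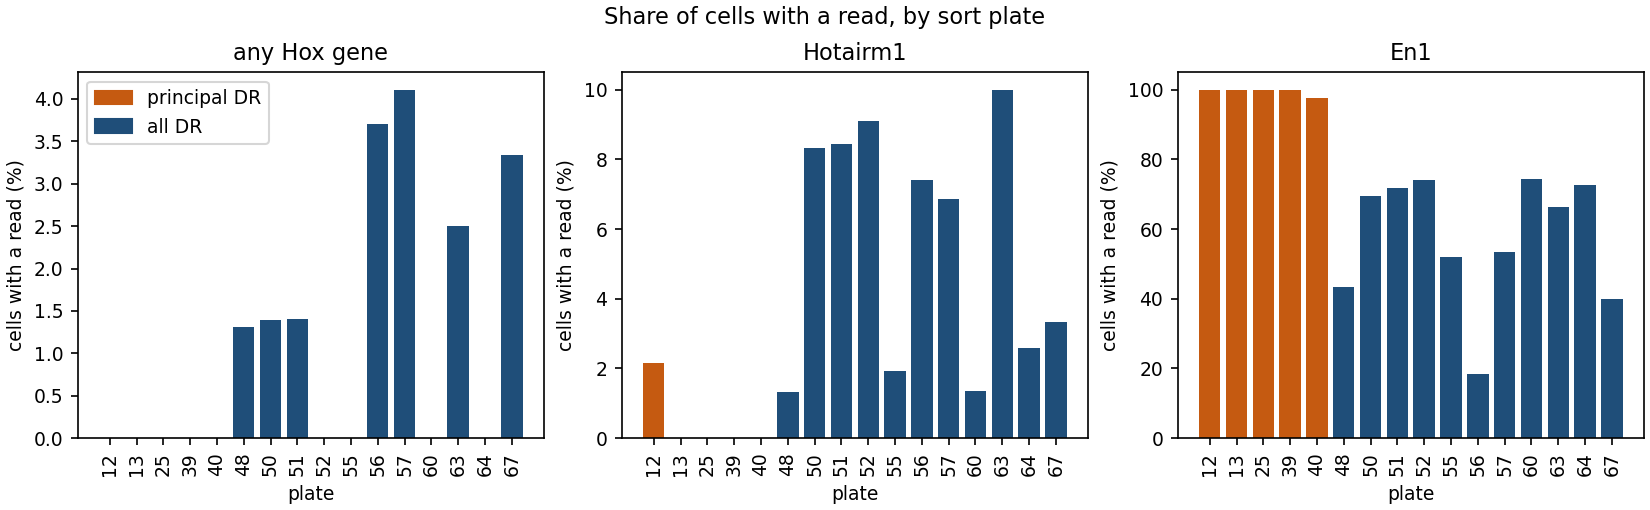
Share of cells with at least 1 read of any Hox gene, Hotairm1 and En1 on each sort plate (bars; orange for principal DR, blue for all DR plates; 27 to 93 cells a plate). Hox reads occur on 7 of 11 all DR plates and none of 5 principal DR plates, and every principal DR plate has a higher En1 share than every all DR plate.

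En1 was read in a larger share of principal DR than of all DR cells, and in a smaller share of each marker group than of the cells in no group. En1, the homeobox gene Engrailed 1, was read in 289 of 290 principal DR cells (99.7%) and in 438 of 709 all DR cells (61.8%, interval 58.1 to 65.4). By plate its share ran from 97.6% to 100% in the principal DR and from 18.5% to 74.3% in the all DR dissection, with no overlap. In the all DR dissection it was read in 91.7% of cells in no group (interval 88.1 to 94.5), 46.3% of Rorb-high (39.8 to 53.0), 29.0% of Zeb2 (21.6 to 37.3), 18.4% of Irx2 (12.3 to 25.9) and 5.71% of Grik1-high cells (0.7 to 19.2). The share in Irx2 cells was below that in cells of no group in 10 of 10 plates. Zeb2 cells split by Piezo2, a mechanosensitive channel gene on the list of the MR Zeb2 cells, with En1 in 11.3% of the 106 cells with it and 87.5% of the 32 without it.

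En1 and Hox cluster reads rarely met in 1 cell. Of the 438 all DR cells with En1, 1 had a Hox gene (0.228%, interval 0.00578 to 1.27), 2 had Hotairm1 and 0 had Hoxaas2. Of the 271 without En1, 9 had a Hox gene (3.32%, interval 1.53 to 6.21), 38 had Hotairm1 (14.0%) and 17 had Hoxaas2 (6.27%). Among Irx2 cells the 25 with En1 had no read of a Hox gene, Hotairm1 or Hoxaas2, which allows up to 12%, while 46 of the 111 without En1 had at least 1 of them (41.4%, interval 32.2 to 51.2). Of the 160 cells without En1 outside the Irx2 group, 8 had at least 1 of them (5%, interval 2.18 to 9.61). The splits by En1, Pth2r and Piezo2 were made after values in the Hox cells had been seen.

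Of the other boundary genes, Pax5, En2 and Pax2 were read in a smaller share of the cells in the marker groups than of the cells in no group, and Lmx1b was read in most cells of every group. Pax5, a paired-box factor of the midbrain-hindbrain boundary, was read in 167 principal DR cells (57.6%), 81 cells of no group (25.9%) and 4 of the 396 cells in any marker group. En2 was read in 72 principal DR cells, 45 cells of no group and 0 of the 396, and Pax2 in 41, 16 and 0, where 0 allows up to 0.758%. Lmx1b, a LIM homeobox gene that serotonin neurons need, was read in 80% to 89.1% of cells in every group. Fgf8 was not read, and Gbx2, Otx2, Lmx1a, Wnt1 and Pax8 were read in under 2% of the cells of either dissection.

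Calls on levels used a 2-fold difference in mean CPM plus a pseudocount of 1, in genes read in at least 10 cells. Between the dissections, 1.08% of 21266 genes were at least 2-fold higher and 1.84% lower in the all DR dissection. Of the 43 tested genes in 5 lists of hindbrain regulators and Hox cofactors, none was higher and 3 were lower. These were En1 (14.5 against 33.4 CPM), Pax5 (2.53 against 14.1 CPM) and Cbx7 (10.6 against 23.4 CPM), a subunit of one of the Polycomb complexes, which keep Hox clusters silent where they are not used. The boundary list had a median log2 ratio of -0.67 over its 5 tested genes, against -0.02 over all genes. By the share of cells with a read, 3.78% of the genes were at least 2-fold more frequent in the all DR dissection, and 0 of the 39 Hox genes were, none of which met the minimum of 10 cells.

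The TALE list holds the Hox cofactor families Pbx, Meis and Pknox and also the TALE genes Tgif1 and Tgif2. Its members ranged from 0.564% (Tgif1) to 97.5% (Meis3) of all DR cells. Meis3 was read in 97.5% of all DR and 93.1% of principal DR cells, Pbx4 in 74.0% and 61.0%, and Pbx3 in 48.7% and 79.7%, whereas Meis1 was read in 14.7% of all DR cells, Meis2 in 2.26% and Tgif2 in 1.55%. None of the 10 tested members differed 2-fold in mean CPM between the dissections, and their median log2 ratio was -0.02, as it was over all genes. Meis2 was not read in the principal DR, and 14 of its 16 all DR cells were Irx2 cells (1.44 CPM on average against 0.0168 CPM in cells of no group, higher in 8 of 10 plates and lower in 0).

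Against cells in no group, Irx2 cells had 2 list genes higher and 4 lower, where 0.842% and 1.34% of all genes were. Higher were Meis2 and Cyp26b1, an enzyme that breaks down retinoic acid, the signal that sets Hox borders in the embryo. Cyp26b1 had 3.24 against 0.0548 CPM, was read in 7 of 136 cells, and was higher in 5 of 10 plates and lower in 1. Its mean was 14.0 CPM in the 35 Grik1-high cells, of which 20 are also Irx2 cells. Among the lower ones were En1 (3.51 against 23.1 CPM), Pax5 (0.0384 against 5.70 CPM) and Pbx3 (19.9 against 47.3 CPM), each lower in 10 of 10 plates. The boundary list had a median log2 ratio of -0.99 here, against 0.02 over all genes. Its median was the same in each of the other marker groups. In all of them it is the ratio of En2, which was read in no cell of any marker group.

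Zeb2 cells had 0 list genes higher and 5 lower, with 2.28% and 4.13% of all genes. Among the 5 were En1, Pax5, Pbx3 and Epha7, an ephrin receptor gene of hindbrain segments, which was at 0.447 against 17.0 CPM and was lower in 10 of 10 plates. Rorb-high cells had 1 gene higher and 5 lower (among them En1, Pax5, Pbx3 and Epha7), with 1.09% and 1.36% of all genes. The higher one was Aldh1a1, a retinoic acid synthesis enzyme, at 9.99 against 1.47 CPM, but it was higher in 5 plates and lower in 5 and was read in 9.96% of Rorb-high and 10.2% of the cells in no group.

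Grik1-high cells had 3 list genes higher and 3 lower, with 3.56% and 3.24% of all genes. Among the lower ones were En1 and Pax5. Higher were Cyp26b1 (14.0 against 0.0548 CPM, read in 8 cells, higher in 4 of 6 plates), Meis1 (4.53 against 1.35 CPM) and the retinoid receptor gene Rxra (11.1 against 5.02 CPM), the last 2 in 3 of 6 plates only. Since 20 of the 35 cells were also Irx2 cells, the groups are not independent.

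**Figure D4:**
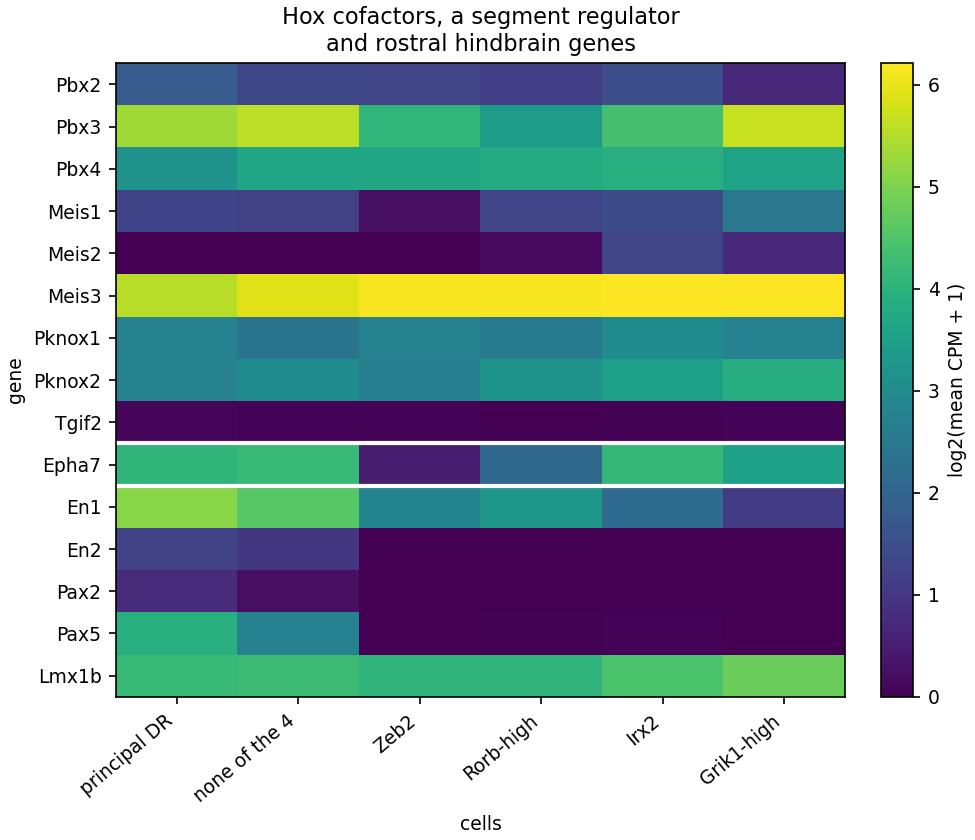
Mean level, as log2(mean CPM + 1), of the TALE list (top), the segment regulator Epha7 (middle) and midbrain-hindbrain boundary genes (bottom), with members read in fewer than 10 cells or not reported left out, in the principal DR dissection and in the marker groups of the all DR dissection. Compare along a row, since CPM is not corrected for gene length. En1, Pax5, En2 and Pax2 are highest in the principal DR and in cells of no group, and Meis3 and Lmx1b are high in every group.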

How the data were processed

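The authors aligned Smart-seq2 reads to mm10 with STAR 2.6.1a, counted them on genes with HTSeq 0.11.2 and deposited CPM values per cell. Reads were recovered by dividing the values of a cell by the value of a single read, and 0 of 9386862 quotients were more than 0.01 read away from a whole number. Reads are not molecules, as there are no unique molecular identifiers. The table holds 999 of the 1536 labelled cells. The labels name no animals, so no count test was run on the recovered reads. A gene counted as detected with 1 read. Intervals are Clopper-Pearson at 95%, and a count of 0 was taken to allow up to 3 cells. That limit is somewhat lower than the upper end of the Clopper-Pearson interval, which is 1.26% rather than 1.03% for 0 of 290 cells. Where a share was 0, ratios used that limit. Coordinates and exon overlaps are from GENCODE M21 (GRCm38, the same build), promoter windows from RefSeq. Cells were sorted singly, but doublets were not called and their part was not tested. The members, lists and marker levels were chosen with earlier results of these data known. Genes with 10 cells were to be named singly, and Hox genes in 50 cells to be ranked for likeness, which none reached. Some genes are counted in totals but not reported here. Fold calls were tested on simulated data. Python 3.11.15, SciPy 1.17.1 and matplotlib 3.10.9 were used.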

Additional observations from a re-analysis of the deposited data

How the results depend on the processing

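No paired analysis was possible between the dissections because each plate holds cells of 1 dissection. Marker groups were compared within plates in the report. The count of Hox genes in at least 10 cells, the count found 2-fold more often in the all DR dissection and the share of principal DR cells with a Hox read stayed at 0 under every alternative. For the first and the last, the alternatives only raised the detection level or left out cells, so a 0 could not have risen. The second was equally fixed where shares of cells were compared, since no Hox gene was read in more than 5 cells. These 0 values are therefore no check on the results. The share of all DR cells was 0.705% to 1.32% under alternatives that kept most cells, and 1.10% to 1.58% with each plate left out. Few all DR cells (24) had oligodendrocyte markers at or below 20 CPM in sum, and 0% of them, and of the Zeb2, Irx2, Rorb-high and ungrouped cells among them, had a Hox read. The share of Irx2 cells was 1.47% at 10 CPM or more of the Hox gene and 0% with the Irx2 level at 50 or 100 CPM, and 3.33% to 4.96% with each plate left out. The Zeb2 share rests on 1 cell of plate 50 and was 0% from 5 reads, at 10 CPM, with the Zeb2 level at 50 or 100 CPM, in cells of exactly 1 group, and with at least 1000 CPM of Tph2, and 0% to 1.03% with each plate left out. Grik1-high cells had 0.862% at a level of 10 CPM and 2.42% from 1 read of Grik1. The Tph2 minimum, a limit of 500 CPM on oligodendrocyte markers, the alternatives for Hotairm1, Hoxaas2 and En1, and the splits by En1, Pth2r and Piezo2 were chosen after seeing the data.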

Other observations

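Genes that keep Hox clusters silent or open ranged from 2.40% (Cbx2) to 99.7% (Kmt2a) of all DR cells. Of the 17 Polycomb and Trithorax genes all were tested, and besides Cbx7 none differed 2-fold between the dissections or between a marker group and the cells of no group. Kmt2a, a histone methyltransferase of the Trithorax group, was read in 99.7% of all DR and 98.6% of principal DR cells, its partner Men1 in 98.3% and 97.6%, and Ezh1, the Polycomb methyltransferase of non-dividing cells, in 98.6% and 96.6%. Ezh2, its counterpart in dividing cells, was read in 3.67% and 4.48%.

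Of the 8 segment regulators, Cdx1, Cdx2 and Cdx4, which act ahead of the trunk Hox genes, were not read in any cell, and Egr2, a factor of alternate hindbrain segments, was read in 0.564% of all DR and 0.345% of principal DR cells.

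The retinoic acid list had 8 of 12 genes with enough cells, and none differed 2-fold between the dissections. The receptor genes Rara and Rxra were read in 26.5% and 44.9% of all DR cells, and the synthesis enzyme gene Aldh1a2 in 0.423%.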
